A study of Arabidopsis thaliana with 12 samples.

Results

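A set of 124 Arabidopsis thaliana genes stood higher than wild type in every mutant group of a study of the TELOMERE REPEAT BINDING (TRB) genes, out of 20114 genes listed for every group. Members were chosen by their measured values: the group mean of log2(FPKM + 1) had to exceed that of wild type by at least 0.8 in trb45 line 1, in trb45 line 2 and in trb123 alike. FPKM counts sequenced fragments per kilobase and corrects for library size, and the 1 added before the logarithm makes differences of low genes look smaller than their ratios. Because the rule used these differences, every comparison of a member with wild type below is a description and carries no test. Limma results are given for comparisons between the mutant groups, but the rule set a floor under each mutant mean and so bears on them too.

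The study measured polyA RNA of whole untreated seedlings at 7 days, with 3 libraries in each of 4 groups. WT was the Col-0 accession, trb45 line 1 and trb45 line 2 were independently made lines of the same trb45 genotype, which was made to study TRB4 and TRB5, and trb123 was a triple mutant of TRB1, TRB2 and TRB3. In every group the seeds were chilled (4 °C) without light for 2 days, and the seedlings were raised at 23 °C on sucrose medium (1%) in long days with a light period of 16 h. The labels do not say whether libraries of a group came from separate sowings, so the spread between them may be technical.

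TRB proteins carry a Myb-type domain that binds telomeric repeats and the telobox, a short copy of that repeat found in front of many genes, and they are known to recruit or assist chromatin regulators at such genes. Many members of the set are better known from another field. STZ, WRKY40 and several ETHYLENE RESPONSE FACTOR (ERF) genes belong to the early response genes of plants, whose transcripts accumulate within minutes of touch, wounding, cold or a pathogen signal and disappear again soon after. XTH and expansin-like genes encode proteins of the growing or remodelled cell wall.

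The targeted genes followed the labels. TRB5 was at 12.54, 11.82 and 11.04 FPKM in WT, between 2.85 and 3.51 in the 6 trb45 libraries and between 13.64 and 15.51 in trb123. TRB4 lay between 8.16 and 11.04 in WT and between 2.96 and 6.10 in the trb45 libraries, so some of its transcript was still counted there. TRB1 was between 0.65 and 0.99 in trb123 against 9.76 to 11.16 in WT, and TRB2 and TRB3 lay between 1.2 and 3.12 in trb123 against 6.34 to 13.27 in WT. Shoot markers dominated all libraries (a summed 47240 to 56680 FPKM over 5 genes), as in green seedlings. The number of genes at 1 FPKM or more was 17557 to 17934 in a library. Line 1 replicate 3 stood apart from its group, with 227 genes at least 1 lower on the log2 scale than in both other line 1 libraries, and trb123 replicate 2 stood apart upward, with 120 genes at least 1 higher. At those 227 genes line 1 replicates 1 and 2 lay with WT, and replicate 3 lay with line 2 and trb123. On a scale from 0 (mean of line 1 replicates 1 and 2) to 1 (replicate 3), the median gene stood at -0.0148 to 0.0236 in the WT libraries, at 0.927 to 0.992 in line 2 and at 0.864 to 0.9 in trb123. These genes were picked by their low values in replicate 3, and TRB5 was low in all 3 line 1 libraries. The labels name no batch for either library. Summed markers of other tissues also moved with the groups. Root markers, mostly PYK10, summed to 975.5 to 1141 FPKM in WT, 1207 to 1661 in the trb45 libraries and 755.8 to 771.7 in trb123. The other root markers did not all follow this sum. SHR was at 15.71 to 19.17 FPKM in WT and 7.27 to 11.41 in trb45, and NRT2.1 was higher in trb123 than in WT. CASP1 and PHT1;1 were lower in trb123, like the sum. Of 10 flower markers only 2, PI and SEP3, were listed for every group. Their sum, nearly all from SEP3, went from 2.93 to 4.37 in WT to 99.35 to 118.5 in trb123. Guard cell markers summed to 37.87 to 39.56 in WT, 31.03 to 36.39 in trb45 and 25.65 to 26.56 in trb123. Trichome and epidermis markers, mostly PDF1, summed to 1036 to 1120, 478 to 928.6 and 582.1 to 781 in that order. Not every marker followed its sum. OST1 was at 9.2 to 10.6 FPKM in WT and 7.83 to 10.75 in trb45. ATML1 was at 20.15 to 21.65 in WT and 22.03 to 27.19 in line 1. GL1 was at 2.47 to 3.16 in WT and 0.18 to 0.49 in trb123. Vasculature markers summed to 94.91 to 98.24 in WT, 54.2 to 110.9 in trb45 and 61.34 to 75.57 in trb123, where APL was higher than in WT. The part of these shifts in the results was not tested.

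In the rule's own contrasts the background was uneven. A difference of at least 0.8 was reached by 453 genes (2.25%) in line 1, by 482 (2.40%) in line 2 and by 2352 (11.7%) in trb123, and by 242 genes in both trb45 lines. The 3 comparisons share the WT libraries. The median member was higher than WT by 1.31 in line 1, by 1.19 in line 2 and by 1.61 in trb123 on the log2(FPKM + 1) scale, beside -0.05, 0.01 and 0.06 for all genes. The smallest of a member's 3 differences was at least 1 in 64 members and at least 2 in 5. Mean expression was highest in trb123 for 74 members, in line 1 for 31 and in line 2 for 19. Without trb123 replicate 2 the trb123 mean was above both trb45 lines in 63 members and below both in 40. In the opposite direction, 97 genes were at least 0.8 lower in all 3 mutant groups.

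**Figure D1:**
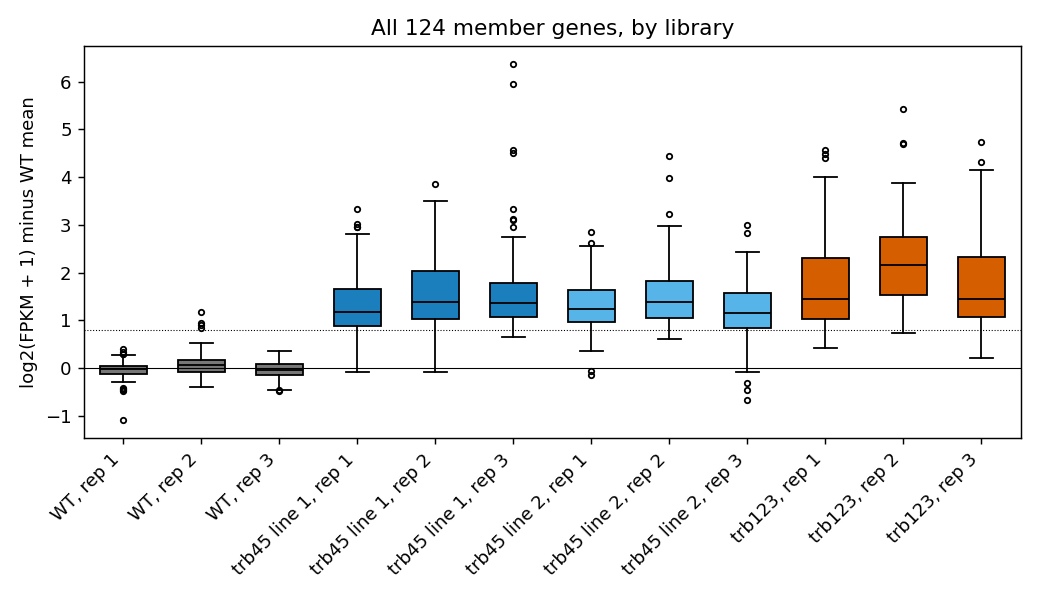
Box plot of the 124 members in each of the 12 libraries, as log2(FPKM + 1) minus the WT mean of the same gene; boxes span the quartiles, the line is the median, whiskers reach 1.5 times the box height and points lie beyond, and the dotted line marks the threshold of 0.8. The mutant boxes lie above the WT boxes, with trb123 replicate 2 the highest, as the choice of members requires for the group means.

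At the level of single libraries, all 9 mutant libraries lay above all 3 WT libraries for 119 members. Over all genes 5.34% did so, and since the rule used these values nothing more is read from the count. For trb123 alone the 3 libraries lay above WT in all 124 members (38.4% of all genes). The exceptions were the seed storage albumins SESA1, SESA2 and SESA3, the nicotianamine synthase NAS2 and AT5G02502, each with an overlap in a trb45 line. The members took 0.357% to 0.445% of the summed FPKM in WT, 0.829% to 1.18% in the trb45 lines and 1.41% to 1.87% in trb123. A single gene, EXT4, made up 42.6% to 50.9% of the members' sum in WT and 40.8% to 52.4% in trb123. In whole seedlings, more cells of a type and more RNA per cell cannot be told apart.

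The threshold cut through a continuous distribution. The members closest to it were RHL41 (ZAT12), with a smallest difference of 0.801 in line 2, CRF6, a cytokinin response factor, with 0.804 in line 1, and LOL1 with 0.81 in line 1. Just outside lay SQE6 at 0.799, AT1G11070 at 0.796 and UMAMIT33 at 0.795. AT1G11070 missed it in line 2 and yet reached 80.35, 64.0 and 74.89 FPKM in trb123 from 0.57 to 0.85 in WT.

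The upstream sequences printed here serve to show what the letters near members look like, since TRB proteins bind the telobox and early response genes are known for the CGCG box and W-box. In the 250 bases upstream of the annotated start, 18 of 124 members (14.5%) held a CGCG box (CGCGT on either strand, a site of calmodulin-binding transcription activators), beside 7.39% of 20019 genes. A telobox (AAACCCTA, either strand) was found in 2 members (1.61%, against 3.56% of genes). AT1G32920 and AT1G32928 are shown as neighbouring members that both hold the CGCG box, NHL3 and DIC2 as those with the most copies (3 each), and DIC2 and AT5G53230 as the holders of a telobox. They are RefSeq sequence of the TAIR10.1 assembly, written 5′ to 3′ along the gene and ending at the base before its start. Capitals mark CGCG boxes, W-boxes (TTGACC or TTGACT, either strand) and teloboxes; 2 CGCG boxes can overlap as a palindrome.
AT1G32920 (chr1:11928507-11928756, plus strand): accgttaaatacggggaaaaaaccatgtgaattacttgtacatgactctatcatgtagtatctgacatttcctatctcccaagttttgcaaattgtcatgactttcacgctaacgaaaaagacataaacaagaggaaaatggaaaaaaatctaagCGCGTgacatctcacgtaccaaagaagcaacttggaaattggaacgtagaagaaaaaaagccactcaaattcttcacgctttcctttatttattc
AT1G32928 (chr1:11930899-11931148, plus strand): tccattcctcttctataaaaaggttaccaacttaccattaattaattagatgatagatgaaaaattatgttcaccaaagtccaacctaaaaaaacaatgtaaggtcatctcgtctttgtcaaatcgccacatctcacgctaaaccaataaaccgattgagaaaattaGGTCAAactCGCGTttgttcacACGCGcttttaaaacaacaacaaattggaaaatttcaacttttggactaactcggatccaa
NHL3 (chr5:1931783-1932032, minus strand): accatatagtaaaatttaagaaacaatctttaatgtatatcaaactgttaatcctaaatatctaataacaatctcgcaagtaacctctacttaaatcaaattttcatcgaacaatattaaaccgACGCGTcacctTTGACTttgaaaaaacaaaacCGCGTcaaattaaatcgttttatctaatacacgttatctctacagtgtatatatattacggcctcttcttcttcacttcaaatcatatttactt
DIC2 (chr4:12686209-12686458, plus strand): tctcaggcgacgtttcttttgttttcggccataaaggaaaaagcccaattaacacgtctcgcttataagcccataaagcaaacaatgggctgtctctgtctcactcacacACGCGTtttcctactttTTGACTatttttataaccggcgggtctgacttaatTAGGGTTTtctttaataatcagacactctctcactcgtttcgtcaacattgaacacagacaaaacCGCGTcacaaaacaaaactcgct
AT5G53230 (chr5:21598598-21598847, plus strand): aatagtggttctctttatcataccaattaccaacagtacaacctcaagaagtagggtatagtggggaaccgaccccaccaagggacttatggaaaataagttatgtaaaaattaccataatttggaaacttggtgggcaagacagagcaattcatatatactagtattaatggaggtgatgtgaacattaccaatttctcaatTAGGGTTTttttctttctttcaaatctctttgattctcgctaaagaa

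The capitals in AT1G32920 and AT1G32928 mark 1 and 2 CGCG boxes, and the second promoter also holds a W-box. In DIC2 the telobox lies between the CGCG boxes, read here in the reverse direction. W-boxes were present in 40 members (32.3%, against 28.2% of genes) and the abscisic acid response core (ACGTG) in 39 members, beside 4802 of 20019 genes; this core is also part of the G-box (CACGTG), found in 8 members (6.45%, against 7.45%). The site II motif (TGGGCC), common in front of genes for ribosomal proteins and the cell cycle, was in 10 members (8.06%, against 16.3%). The DRE core (CCGAC) was in 12.1% of members and 12.9% of genes, the GCC box (GCCGCC) in 2.42% and 1.97%, the heat shock element (GAANNTTC) in 12.9% and 9.11%, and the GAGA repeat (GAGAGA) in 16.9% and 19.5%. With 500 bases the CGCG box share was 16.1% against 12.5%, a smaller gap than in the shorter window. These matches are descriptions of letters and no test was made of them.

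Transcription factors formed the largest group that could be named, with 20 members. The roles used here for ordering were assigned after the values had been seen. Their median difference from WT was 1.71 in line 1, 1.38 in line 2 and 1.59 in trb123. STZ (AT1G27730, also ZAT10), a zinc finger repressor of stress responses, had the largest smallest difference of all members. It was at 0.98, 1.83 and 1.43 FPKM in WT, at 17.59, 18.04 and 19.5 in line 1, at 13.75, 17.74 and 11.91 in line 2 and at 23.08, 61.84 and 23.55 in trb123. No mutant library came near the WT range, and trb123 replicate 2 was far above its group. The differences from WT were 3.02, 2.68 and 3.8. Its relative RHL41, which takes part in responses to light stress and reactive oxygen, differed by 1.19, 0.80 and 2.96, and was higher in trb123 than in the mean of both trb45 lines by 1.97 (SE 0.20, limma adjusted p = 2.4e-06).

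ERF104, a target of a pathogen-activated MAP kinase, was at 4.27 to 5.99 FPKM in WT, at 47.72, 56.79 and 51.25 in line 1, at 29.91, 42.61 and 23.23 in line 2 and at 36.26, 87.97 and 38.1 in trb123. AT5G51190 (ERF105), a cold-regulated factor, was at 1.06, 1.15 and 1.23 in WT, at 20.53, 23.22 and 20.72 in line 1, at 9.03, 11.59 and 7.29 in line 2 and at 44.23, 91.02 and 36.94 in trb123. The 4 groups of AT5G51190 did not overlap. It had the largest difference of any member, 4.65 in trb123. The other factors of the family were ERF5 (2.00, 1.2 and 2.02 higher than WT in line 1, line 2 and trb123), ERF6 (1.92, 0.96 and 1.28) and ERF-1 (1.87, 1.34 and 1.3). Without trb123 replicate 2 the trb123 difference of ERF6 was 0.76. ERF6 and ERF-1 are neighbours on chromosome 4.

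ORA47, a regulator of jasmonate synthesis, was almost silent in WT at 0.28, 0.48 and 0.32 FPKM. In line 1 it was at 9.59, 18.63 and 6.9, in line 2 at 5.06, 5.62 and 2.93, and in trb123 at 1.14, 10.3 and 1.44. Its place in the set therefore leaned on trb123 replicate 2, without which the trb123 difference was 0.75 in place of 1.52. WRKY40, a repressor of immune genes and of abscisic acid responses, had the same shape, with 0.64, 0.87 and 1.15 in WT, 9.14, 9.51 and 8.68 in line 1, 6.76, 6.95 and 5.65 in line 2, and 4.38, 20.99 and 3.06 in trb123, where the difference of 2.06 was 1.32 without replicate 2. WRKY22, which acts downstream of immune receptors, differed by 1.45, 1.54 and 1.27, and in trb123 by 0.75 without replicate 2. CBF2, a master regulator of cold acclimation, stayed low, at 0.13 to 0.6 FPKM in WT and 1.47 to 2.07 in the trb45 lines, and reached 8.65 in trb123 replicate 2 alone, without which its trb123 difference of 1.63 was 1.03.

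TEM1, a RAV-type repressor of flowering and of gibberellin synthesis, was the most even of the high-ranking factors. It was at 6.84, 7.5 and 8.43 FPKM in WT, at 42.63, 63.25 and 47.67 in line 1, at 40.42, 48.12 and 43.68 in line 2 and at 43.19, 74.03 and 42.94 in trb123. Its differences from WT were 2.59, 2.39 and 2.62, and trb123 and the trb45 lines differed by 0.13 (SE 0.17, limma adjusted p = 0.52). Its close relative RAV2 (TEM2), another floral repressor, was at 13.59 to 15.74 in WT, at 58.34 to 78.28 in the trb45 libraries and at 22.48, 49.11 and 20.34 in trb123. RAV2 was lower in trb123 than in the mean of both trb45 lines by 1.18 on the log2 scale (limma adjusted p = 0.000308), and its excess over WT in trb123 was 0.54 without replicate 2 in place of 0.93. AT1G25550, a Myb-like factor next to TEM1, differed from WT by 1.12, 1.38 and 1.3.

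**Figure D2:**
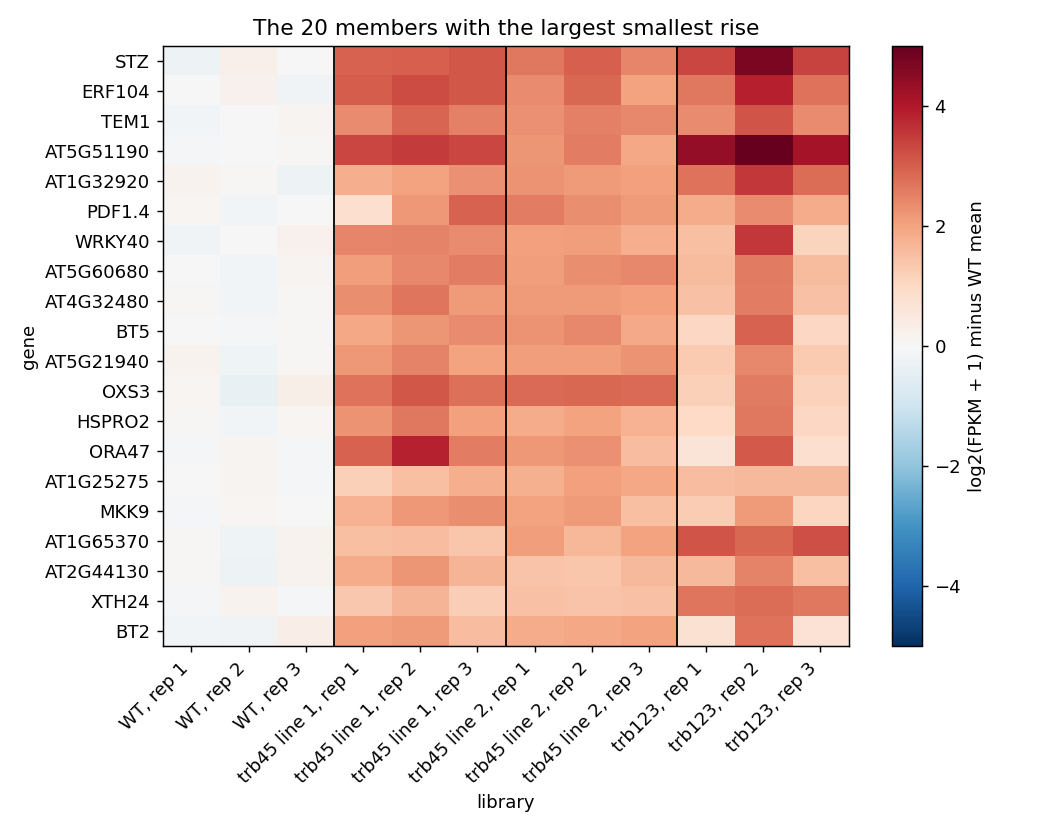
Heat map of the 20 members with the largest smallest difference (rows) in the 12 libraries (columns); colour gives log2(FPKM + 1) minus the WT mean, red above and blue below, and vertical lines part the groups. For WRKY40, BT5, ORA47 and BT2 the trb123 replicate 2 column is darker than the columns of replicates 1 and 3, while XTH24 and AT1G65370 are nearly even within trb123.

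Signalling and turnover genes made up 17 members, with median differences of 1.72, 1.36 and 1.49. Among them were 3 of the 5 annotated BTB and TAZ domain genes, which encode adaptors of ubiquitin ligases that answer to nitrate, sugar and light. BT2 was at 7.02, 6.85 and 10.16 FPKM in WT, at 25.09 to 38.37 in the trb45 libraries and at 14.19, 57.9 and 13.84 in trb123. BT5 behaved alike, at 8.62 to 9.43 in WT, 36.08 to 52.47 in the trb45 libraries and 19.43, 76.49 and 19.72 in trb123. Without trb123 replicate 2 the trb123 differences of BT2 and BT5, 1.41 and 1.67, were 0.76 and 1.04. BT4 was more even, and was higher in trb123 (37.23, 46.62 and 36.18 FPKM) than in the trb45 lines (13.93 to 21.19), a difference of 1.21 (SE 0.13, limma adjusted p = 6.18e-06). The kelch-repeat F-box genes AT2G44130 (KMD3) and AT1G80440 (KMD1), whose products target enzymes of phenylpropanoid synthesis and response regulators of cytokinin signalling, differed from WT by 1.92, 1.47 and 1.86 and by 1.98, 2.21 and 1.21. The trb123 difference of AT1G80440 was 0.69 without replicate 2. Of 55 listed kelch genes these were the only members, and the median kelch gene differed from WT by -0.11, -0.15 and -0.24. MKK9, a MAP kinase kinase upstream of ethylene signalling, differed by 2.08, 1.88 and 1.49. TCH3, a calmodulin-like touch gene, was at 5.71 to 7.08 FPKM in WT, at 14.73 to 21.18 in the trb45 libraries and at 34.76, 55.08 and 34.95 in trb123. HSPRO2, an ortholog of a nematode resistance gene of sugar beet, was at 36.96 to 43.76, at 138.33 to 259.63 and at 82.32, 259.61 and 85.03, with a trb123 difference of 1.55 that was 1.01 without replicate 2.

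Cell wall genes made up 15 members, with median differences of 1.25 in line 1, 0.94 in line 2 and 2.11 in trb123. In none of them was trb123 replicate 2 at least 1 above both other trb123 libraries, as it was in 0.597% of all genes. Against the mean of both trb45 lines 12 of 15 were called higher in trb123 (limma adjusted p under 0.05), as were 36.2% of all genes. XTH24, a xyloglucan endotransglucosylase/hydrolase, was at 51.23, 61.32 and 52.61 FPKM in WT, at 141.03, 182.04 and 128.69 in line 1, at 153.67, 149.13 and 152.03 in line 2 and at 351.62, 382.85 and 346.1 in trb123. The trb45 lines did not overlap with either WT or trb123, and trb123 exceeded them by 1.25 (SE 0.10, limma adjusted p = 5.05e-07). XTH24 lies beside XTH18 and XTH19 on chromosome 4. XTH19 differed from WT by 1.04, 0.89 and 1.57. XTH18 differed by 1.81, 0.93 and 1.38, so its order of groups was another. Without line 2 replicate 2 the smallest differences of XTH18 and XTH19 were 0.68 and 0.78, under the threshold. Of 25 listed XTH genes 5 were members, the others being XTR6 (XTH23) and XTH4, and the median XTH gene differed from WT by 0.66, 0.44 and 0.26. XTH18 and XTH19 are similar copies, and how fragments that match both were counted is not given in the sources used here.

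EXLA1 and EXLA2 are expansin-like genes. EXLA1 was at 5.19, 4.66 and 3.5 FPKM in WT, at 7.46 to 15.14 in the trb45 libraries and at 53.49, 58.82 and 47.9 in trb123, and trb123 exceeded the trb45 lines by 2.28 (SE 0.14, limma adjusted p = 3.14e-08). EXLA1 overlaps AT3G45980 on the other strand. EXT4, an extensin that crosslinks in the wall, was the most abundant member, at 961.36, 1434.81 and 1005.19 in WT, 2439.89 to 2886.77 in line 1, 1469.46 to 3418.1 in line 2 and 3838.82 to 6026.86 in trb123. The lowest library of line 2 nearly met the highest of WT. The next in abundance were AT1G78830, a lectin-like gene, with a WT mean of 126.5 FPKM, and AT5G14920 (GASA14), a gibberellin-regulated gene, with 94.3.

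**Figure D3:**
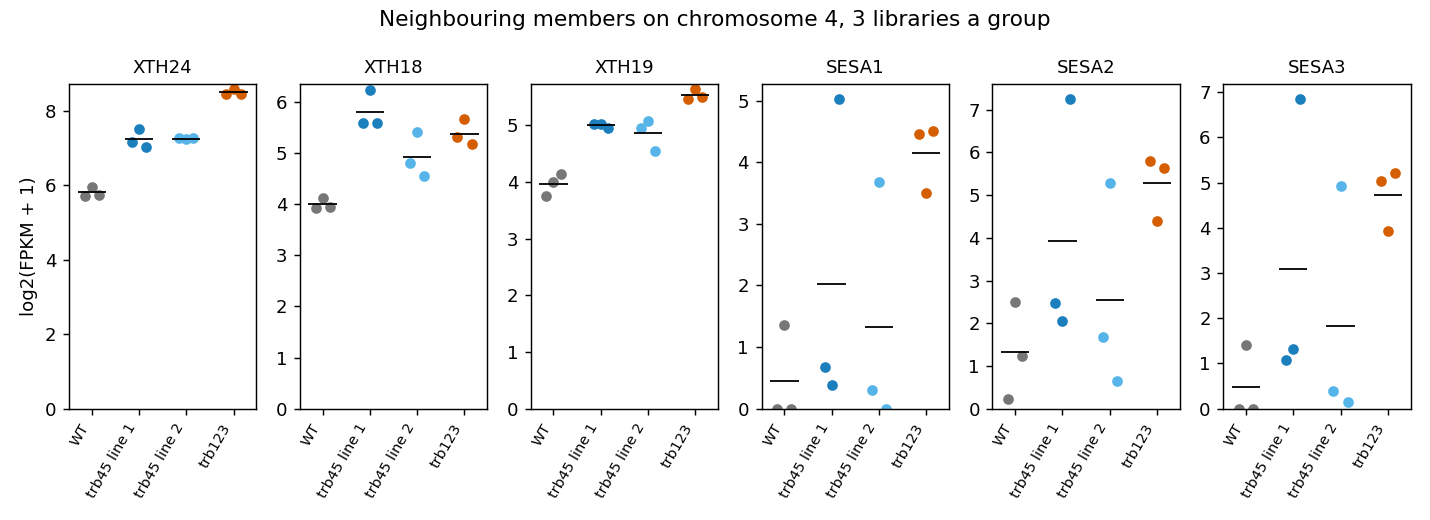
Points give log2(FPKM + 1) in each library (3 a group) for neighbouring members on chromosome 4, XTH24, XTH18 and XTH19 on the left and SESA1, SESA2 and SESA3 on the right, with horizontal lines at the group means and a separate vertical scale from 0 in each panel. The XTH libraries of a group lie closer together than the SESA libraries, though those of XTH18 are spread in line 2. For each SESA gene line 1 replicate 3 and line 2 replicate 2 lie far above the other libraries of their lines.

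The 3 seed storage albumins were members through a few libraries only. SESA3 was at 0, 1.67 and 0 FPKM in WT, at 1.11, 1.49 and 114.2 in line 1, at 0.32, 29.34 and 0.11 in line 2 and at 31.97, 14.29 and 36.01 in trb123. In each of the lines a single library was high and the others lay within or near the WT range, whereas all trb123 libraries were high. SESA1 and SESA2 had the same libraries high. Without line 2 replicate 2 the line 2 means fell below WT, with differences of -0.30 for SESA1, -0.16 for SESA2 and -0.20 for SESA3. Seed and embryo markers moved in the same libraries. The sum of the 8 listed markers, 2 of which are SESA1 and SESA3, was 325.2 FPKM in line 1 replicate 3, 94.05 in line 2 replicate 2 and 94.5 to 153.0 in trb123, against 7.06 to 34.85 in WT and 3.62 to 13.49 in the other trb45 libraries. The sum was carried by 5 of the 8, SESA1, SESA3, CRA1, CRU3 and OLEO1. EM1, EM6 and ABI3 were at 0.45, 3.56 and 1.36 FPKM in line 1 replicate 3, within the range of replicates 1 and 2. None of the 8 was at 0 in every library. Their part in the result was not tested.

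Defence and lipid-transfer genes numbered 8, with median differences of 1.34, 1.39 and 1.72. PDF1.4, a defensin-like peptide gene, was at 2.26, 1.79 and 2.05 FPKM in WT, at 4.46, 12.46 and 22.63 in line 1, at 16.9, 14.11 and 12.21 in line 2 and at 9.9, 14.5 and 10.02 in trb123. All mutant libraries exceeded WT, but the line 1 libraries were widely spread. NHL3, a membrane protein gene induced by bacterial pathogens, was at 44.04 to 53.35 in WT, at 89.86 to 156.97 in the trb45 libraries and at 132.22, 303.71 and 143.95 in trb123. PR4, a chitin-binding protein gene, averaged 1.17, 1.39 and 1.52 above WT. Of the 14 members for metabolism and transport, DIC2, a mitochondrial dicarboxylate carrier, had the largest trb123 difference (3.58), with 32.79, 109.21 and 33.9 FPKM there, 17.5 to 25.84 in line 1, 5.59 to 10.8 in line 2 and 2.5 to 4.42 in WT. OXS3, a chromatin-associated factor of oxidative stress tolerance, was at 3.38 to 6.09 in WT, at 36.58 to 48.35 in the trb45 libraries and at 12.08, 34 and 11.76 in trb123.

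The mutants were compared with each other, with trb123 set against the mean of both trb45 lines. The rule bears on this comparison, because its floor under trb123 left out 118 of the 242 genes that were high in both trb45 lines. Of the 124 members, all of which passed the expression filter, 53 were called higher in trb123 and 11 lower (limma adjusted p under 0.05). Over the 18700 genes tested, 36.2% were higher and 23.4% lower in that comparison, beside 42.7% and 8.87% of members, and nothing is read from these shares. With median-ratio scaling 44 members were higher and 16 lower, beside 29.2% and 29.3% of all genes. The median difference was 0.21 for members and 0.09 for all genes. Against line 2 alone 52 members were higher and 12 lower, beside 30.6% and 21.0% of all genes, and 48 of the 53 and 10 of the 11 were among them. The 5 members with the largest called excess in trb123 were SESA1 at 2.48, the DUF295 gene AT5G53230 at 2.38, EXLA1 at 2.28, AT1G19380 at 2.14 and AT1G17960, a threonyl-tRNA synthetase gene, at 2.06 (SE 0.09, limma adjusted p = 3.17e-09). AT1G17960 was at 0.31 to 0.55 FPKM in WT, at 1.17 to 2.35 in the trb45 libraries and at 10.28 to 10.84 in trb123, which were nearly equal. The call of SESA1 (SE 0.96, limma adjusted p = 0.0403) did not hold without WT replicate 1 (adjusted p = 0.051), nor without several other libraries.

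The 5 with the largest called deficit in trb123 were OXS3 (-1.2, SE 0.27, limma adjusted p = 0.00169), RAV2 (-1.18), the DUF506 gene AT2G20670 (-1.14), AT5G22920, a RING finger gene (-0.89), and AT1G80440 (-0.89). In all 5 trb123 replicate 2 stood at least 1 above both other trb123 libraries. AT5G22920 was at 16.58, 48.52 and 15.73 FPKM in trb123 beside 35.96 to 52.72 in the trb45 libraries, so replicate 2 was inside the trb45 range and replicates 1 and 3 were below it. The calls of AT5G22920 and AT1G80440 did not hold without trb123 replicate 1 (limma adjusted p = 0.0754 and 0.0911) or replicate 3 (0.0789 and 0.0825). Without trb123 replicate 2, 50 members were higher and 26 lower, beside 32.5% and 21.6% of all genes, and without replicate 1 or replicate 3 only 4 were lower. Without replicate 2 the excess of AT5G22920 over WT in trb123 was 0.50 in place of 1.01.

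**Figure D4:**
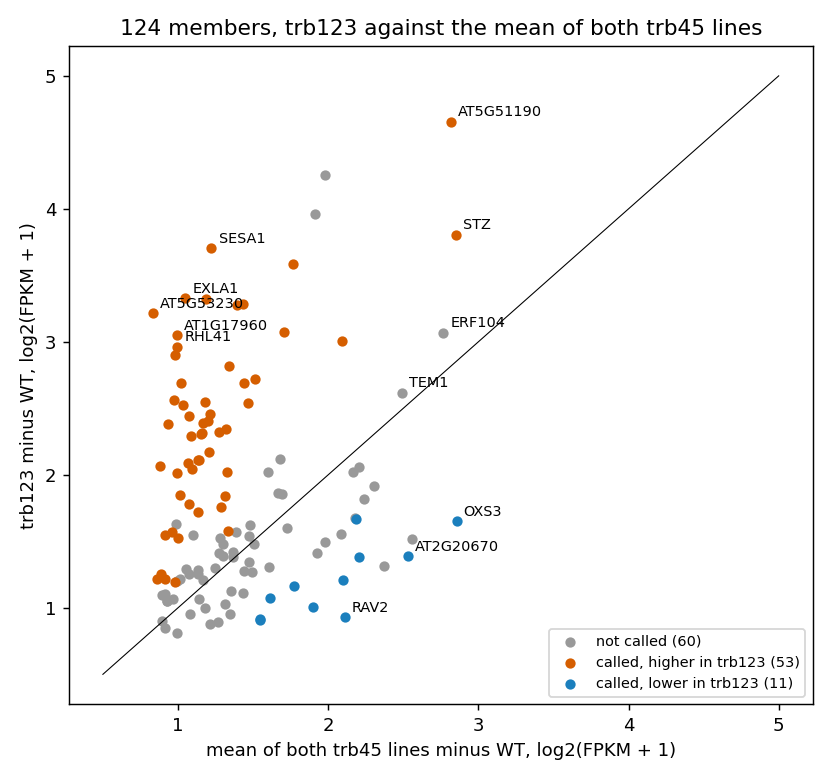
Each of 124 points is a member, with the mean difference of both trb45 lines from WT on the horizontal axis and that of trb123 on the vertical axis, both in log2(FPKM + 1); the line marks equal differences and colours the limma call of trb123 against the mean of both lines. Points called higher in trb123 (53) lie above the line, mostly where the trb45 difference is small, and the 11 called lower lie below it.

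Between the 2 trb45 lines 3 members were called higher in line 1 and 2 lower, beside 2.07% and 2.55% of all genes, and the members' shares were 2.42% and 1.61%. CAF1a, a deadenylase gene, was at 37.05, 48.33 and 14.16 FPKM in line 1 and at 8.41, 10.76 and 7.54 in line 2 (difference 1.64, SE 0.40, limma adjusted p = 0.0433). AT5G51190 differed by 1.15 and XTH18 by 0.88. AT1G72060, a protease inhibitor gene, was lower in line 1 (15.47, 9.46 and 14.16 FPKM) than in line 2 (23.89, 29.7 and 25.87), by 0.99 (SE 0.17, limma adjusted p = 0.0278). AT5G44260 (TZF5), a zinc finger gene, differed by -0.73 (limma adjusted p = 0.0499). None of the 5 calls held when the trb45 lines were fitted without the other groups, where the adjusted p of each was between 0.14 and 0.203, and left-out libraries gave between 0 and 27 calls.

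A group of 29 members was marked by trb123 replicate 2, in which each was at least 1 higher on the log2 scale than in both other trb123 libraries. Over all genes 120 were (0.597%), and among members 23.4%. The trb123 mean in the rule holds replicate 2, so a high value there helped a gene to pass. For that reason nothing is read from the gap between these shares. The 29 included 11 of the 20 transcription factors, 8 of the 17 signalling and turnover members and none of the 15 cell wall members. ORA47, WRKY40 and BT2 exceeded the higher of the other libraries by 2.21, 2.03 and 1.96. With replicate 2 left out, the median trb123 difference of the 29 was 1.04 in place of 1.63, and 21 stayed at or above 0.8, while the other 95 had a median of 1.60 either way and 89 stayed. In the trb45 lines the 29 had median differences of 2.17 and 1.94, beside 1.19 and 1.17 for the other 95. The rule used these differences as well, so nothing is read from that gap either. Without replicate 2 the set held 111 genes, 110 of them members.

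**Figure D5:**
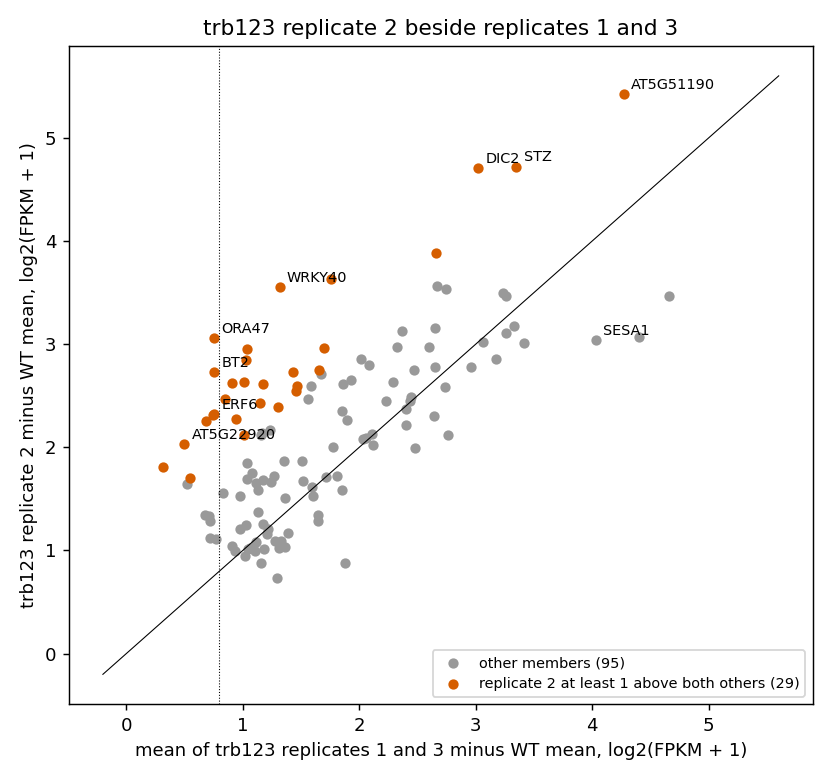
Each point is a member, with the mean of trb123 replicates 1 and 3 minus WT on the horizontal axis and trb123 replicate 2 minus WT on the vertical axis, in log2(FPKM + 1); the solid line marks equality and the dotted line the threshold of 0.8. The 29 coloured members lie above the line, ORA47, BT2 and ERF6 left of the threshold, while SESA1 lies below the line.

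Replicates 1 and 2 of line 1, from which line 1 replicate 3 stood apart, both lay above all 3 WT libraries in 120 of 124 members. Over all genes 17.7% did so. Their mean alone was at least 0.8 above WT in 108 members, beside 2.55% of all genes. The line 1 mean in the rule holds both libraries, so nothing more is read from these counts. Without line 1 replicate 3 the rule was met by 113 genes, 108 of them members. Without line 1 replicate 3 and trb123 replicate 2 together, 99 genes met the rule, 94 of them members. When each of the 12 libraries was left out in turn, 64 of the 124 members met the rule every time.

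Other genes of the pathways were counted in 17 lists that hold 201 tested genes, 13 of them members: STZ, RHL41, WRKY22, WRKY40, ERF5, ERF6, ERF104, AT5G51190, ORA47, CBF2, TCH3, NHL3 and OXS3. In all, 86 list genes were called in the trb45 lines (42.8%, against 28.7% of all genes) and 133 in trb123 (66.2%, against 59.4%), members included. The rule chose those 13 members by these same contrasts with WT, so nothing is read from these shares. Of the 188 that were no members, 42 rose and 31 fell in the mean of both trb45 lines against WT, beside 12.8% and 15.9% of all genes, and 60 rose and 60 fell in trb123, beside 33.9% and 25.5%. The median over these 188 was 0.09 and 0.05, beside -0.02 and 0.07 over all genes. The counts that follow leave members out. Of the zinc finger list (5 tested) 3 rose in trb45 and 4 in trb123, none fell, and ZAT6 rose by 0.90 and 0.97. Of the WRKY list (12 tested) 3 rose in trb45 and 9 in trb123 with no fall. WRKY53, a senescence and defence factor, rose by 3.27 in trb123 and was not called in trb45 (0.70, limma adjusted p = 0.0738). Of the ERF and DREB list (5 tested) 2 rose in each, ERF2 and ERF4 in trb45 and ERF4 and ERF11 in trb123. Of the touch and calcium list (7 tested) XTH22, the touch gene TCH4, rose in both by 0.95 and 1.65, CIPK6 fell in trb45, and 3 genes rose in trb123. XTH22 was at 43.92, 137.27 and 45.36 FPKM in trb123, so replicate 2 was far above its group there too.

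Over all genes 12.8% rose and 15.9% fell in trb45, and 33.9% rose and 25.5% fell in trb123. The counts below stand beside these shares, and no list was tested as a set. Abscisic acid, drought and cold genes (17 tested) held no member. Of these genes 6 fell and 0 rose in trb45, and 12 fell and 3 rose in trb123. KIN1, a cold-induced gene, fell by 1.34 and 1.43. CBF2, which stayed low outside trb123 replicate 2, was higher while KIN1 was lower in the same mutants, and a link between them was not tested. Of 9 heat shock genes 6 fell and 1 rose in trb45, and 2 fell and 2 rose in trb123. Of 11 iron deficiency genes 3 fell in trb45 and 10 in trb123 with no rise in either. Of 21 jasmonate genes 4 rose and 1 fell in trb45, and 8 rose and 7 fell in trb123. Of 10 pathogen and salicylate genes 3 rose and 3 fell, then 3 rose and 1 fell. Of 13 oxidative stress genes 4 rose and 1 fell, then 8 rose and 4 fell. Of 11 DNA damage genes 3 rose and 2 fell in trb45 and 6 rose in trb123. Of 11 senescence and carbon starvation genes 7 rose in trb45, and 6 rose and 1 fell in trb123; DIN10 rose by 1.34 and 0.65. Phosphate starvation genes (8 tested) gave 1 rise and 1 fall, then 3 falls; flavonoid genes (11) gave 4 falls, then 3 rises and 4 falls. Clock genes (13) gave 2 rises and 3 falls, then 2 and 5; floral repressor MADS-box genes (7) gave 3 rises, then 1 rise and 4 falls. Photosynthesis genes (17) gave 5 rises, then 7 falls.

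Members shared features that the rule did not use. A transcript without introns was annotated for 52 of 124 (41.9%), beside 3521 of 20020 annotated genes, and for 13 of the 20 transcription factors but 2 of the 15 cell wall members. The 118 genes at least 0.8 higher in both trb45 lines but not in trb123 had a like share (37.3%), whereas the 2042 that were higher in trb123 alone had 17.4%, so the feature was not particular to the set. The median exon length was 1319 bases against 1785 over all genes, and 1430.5 and 1464 in the other sets, in that order. A median below that of all genes was thus not particular to the members either. The median WT level, a term of the rule, was 3.64 FPKM against 6.65. On the chromosomes 16 members formed 9 pairs with no listed gene between them. Besides those above, the pairs were AT1G32920 with AT1G32928, which differed from WT by 2.04, 2.15 and 3.01 and by 1.59, 1.37 and 1.62, GPT2 with BGLU45, and AT1G65500 with AT1G65510. BT2 and AT3G48390 had 1 listed gene between them. Another annotated gene overlapped 27 members, in 1 case on the same strand. The libraries were stranded but the use of strand in counting is not given in the sources used here, so fragments of such pairs may be mixed.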

How the data were processed

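Polyadenylated RNA of 12 stranded seedling libraries was sequenced, 3 for each of 4 groups taken from the sample labels. The authors deposited FPKM values, rounded to 2 decimals, in 1 table per group; the decimal comma of the line 1 values was read as a point. Per the submitters' processing notes STAR 2.7.1, DESeq2 and the TAIR10 build were used, with no role stated; the counting program and annotation are not given in the sources used here. Genes listed in all 4 tables were joined by ID. Depths inferred from the steps between low FPKM values lay between 22570000 and 24325000 fragments; between 72.4% and 79.7% of the low values fell within 0.25 of a whole number, too few to recover counts, so no count test was run.

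The members and gene lists were chosen with earlier results of these data known. The 18700 genes that reached 1 FPKM in 3 or more libraries were fitted on log2(FPKM + 1) with limma 3.58.1 in R 4.3.3, in 1 model of 4 group means over all 12 libraries (lmFit, contrasts.fit, eBayes with trend). P-values were Benjamini-Hochberg adjusted over all genes of a comparison and a gene was called under 0.05; rose and fell are used of called genes. P-values measure the spread between these libraries. The code was tested on simulated data. The text names the TRB genes, the 20 members with the largest smallest difference, those next to the threshold, list members, neighbours, the most abundant members, and those with the largest called differences between mutants; all others were chosen after their values were seen. Annotation and upstream sequence came from RefSeq TAIR10.1, which matched 20020 IDs. List symbols that could not be resolved, or that named another gene, were dropped. Same-numbered libraries of different groups were not paired in the main model. Their deviations from group means correlated at -0.0558 to 0.318 over 18 pairs, above 0.1 in 4, so some shared variation by number is possible. Alternatives covered the pseudocount, scaling, filters, thresholds, the model, the replicate number as a block and each library left out.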

Additional observations from a re-analysis of the deposited data

How the results depend on the processing

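The number of members depended on the rule's own settings: 276 genes met it with a pseudocount of 0.1, 64 with a threshold of 1 and 244 with a threshold of 0.6. Leaving out each library gave 108 to 141 members, and the alternatives with other scaling, a pseudocount of 0.5, a filter or group medians gave 120 to 172. The smallest differences of the albumins SESA1, SESA2 and SESA3 changed sign without trb45 line 2 replicate 2 (-0.3046, -0.1589 and -0.1967) and reached 1.5344, 2.1654 and 2.1896 without line 2 replicate 3. The count of members called between the trb45 lines was unstable: 5 became 0 at an adjusted p under 0.01, 0 with the compared groups only, 11 with the replicate block, 0 to 27 without each library, the highest without line 1 replicate 3, and 39 without that library and trb123 replicate 2, an alternative chosen after seeing the data. With median-ratio scaling the split was 4 higher and 1 lower. The cause was not tested. List genes called in both trb45 lines fell from 86 to 53 at an adjusted p under 0.01. Members called between both trb45 lines and trb123 (64) stayed between 49 and 83 under all alternatives, with 69 under the replicate block, but the 11 called lower became 4 without trb123 replicate 1 or replicate 3, 5 at an adjusted p under 0.01, 16 with median-ratio or quantile scaling, 26 without trb123 replicate 2 and 28 without both libraries that stood apart. Those called between trb45 line 2 and trb123 (64) stayed between 48 and 82, and list genes called in trb123 (133) stayed within 1.5 times, up to 143. Without each library these 3 counts ranged over 51 to 76, 53 to 70 and 124 to 135, and the trb45 list count over 58 to 94. The replicate block changed no other count by more than 1.5 times. The pseudocount understates differences of members near 0 FPKM in WT, and depth limits the precision of those under 1 FPKM.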
